A study of Mus musculus with 9 samples.

Results

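The genes described here are 10 genes that copy, write, erase or read repressive marks on chromatin, taken by symbol from a table of 15552 protein-coding mouse genes: Dnmt1, Uhrf1, Hells, Dnmt3a, Dnmt3b, Tet1, Tet2, Tet3, Ezh2 and Suz12. All 10 were found, each under 1 identifier, and their RNA was followed over 3 time points. The cells were MyC-CaP, a mouse prostate cancer line established from a tumor of an animal whose prostate epithelium carried a MYC transgene under a probasin promoter, so that every library comes from a single transformed line. The cells were kept for 6-12 h in medium without serum and calcium and then given NRG1, which binds the receptor HER3, as a recombinant protein at 15 ng/mL. RNA was taken at 0, 12 and 24 h, with 3 libraries labelled as biological replicates at each time point. The 0 h libraries carry the same treatment label and are the baseline. Libraries kept in the same medium without NRG1 for 12 or 24 h were not analysed here, so time in that medium and time with NRG1 cannot be told apart in any comparison below.

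The libraries held 28467089 to 39239760 counts, and 11373 genes had enough counts to be tested. The label calls the cells epithelial-like prostate cancer cells. Of the luminal markers, Hoxb13 had a mean of 92.2 CPM (counts scaled to a common library size) and Krt8 21.2 CPM, whereas Cdh1, Epcam and Krt18, which define epithelium elsewhere, each had a mean under 1 CPM. Of 4 fibroblast markers in the table, Pdgfra had 16.5 CPM and the other 3 had means under 1 CPM. All 9 basal, leukocyte and endothelial markers in the table also had means under 1 CPM. The summed fibroblast markers ranged from 15.3 to 18.0 CPM over all 9 libraries. In bulk RNA, fewer cells that express a gene and less RNA in each such cell cannot be told apart.

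Methylation of cytosine in CpG dinucleotides and the Polycomb mark on histone H3 both hold genes in a silent state, and both have to be restored each time DNA is copied. UHRF1 binds DNA that carries the methyl group on the old strand alone and recruits DNMT1, which methylates the new strand, while HELLS (also called LSH) remodels nucleosomes so that methylation can reach packed DNA. DNMT3A and DNMT3B place methylation where there was none, and the TET enzymes oxidize it, a step towards its removal. EZH2 is the catalytic subunit and SUZ12 a core structural subunit of Polycomb repressive complex 2 (PRC2), which methylates histone H3, and EZH2 has long been studied in prostate cancer.

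Per length, Suz12, Dnmt1, Uhrf1 and Ezh2 had the highest levels of the 10 genes at every time point and Tet1 and Dnmt3b the lowest. Levels here are TMM-scaled CPM per kb of exon, counted over all annotated exons of a gene. At 0 h Suz12 was highest at 38.1 ± 1.60 (SD, n = 3), followed by Dnmt1 at 15.9 ± 0.837, Uhrf1 at 11.8 ± 0.693, Ezh2 at 9.33 ± 0.252 and Hells at 3.88 ± 0.271. Tet3 at 2.93 ± 0.110, Dnmt3a at 2.57 ± 0.164 and Tet2 at 1.29 ± 0.122 came next, and Tet1 at 0.0428 ± 0.00968 and Dnmt3b at 0.0291 ± 0.0202 were last. The order of the means was the same at 12 and 24 h. Neighbours in that order did not overlap in their libraries down to Hells at any time point, but Tet3 and Dnmt3a overlapped at 12 h (2.43 to 2.94 against 2.11 to 2.57) and at 24 h (2.26 to 2.61 against 2.30 to 2.44), and Tet1 and Dnmt3b overlapped at 0 h and at 24 h. The choice of length matters for Ezh2: with the longest transcript in place of all exons its level at 0 h was 22.4 ± 0.605 CPM per kb, above Dnmt1 at 20.001 ± 1.05 CPM per kb.

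**Figure D1:**
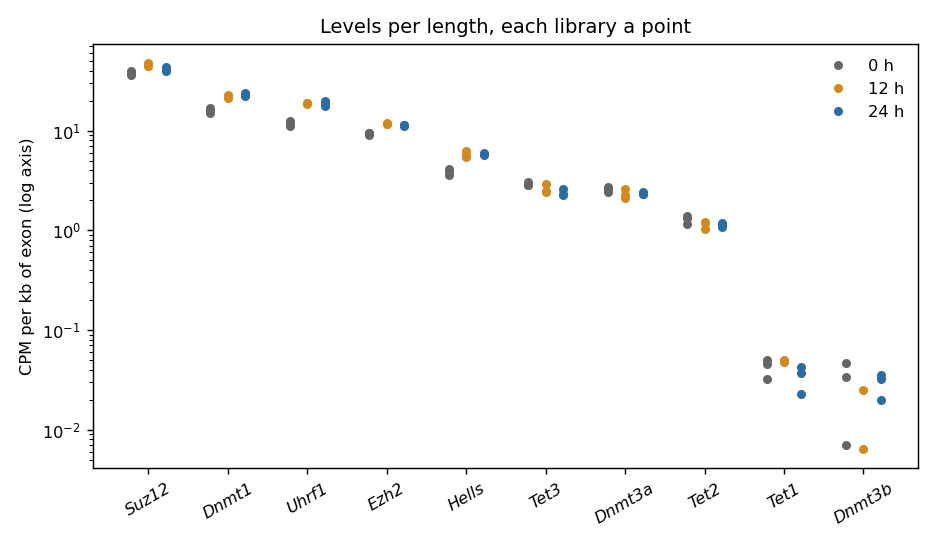
Levels of the 10 genes per length. The vertical log axis is TMM-scaled CPM per kb of exon, each point is 1 library, colors are the 3 time points, and genes are ordered by their mean at 0 h; 1 library of Dnmt3b with 0 counts at 12 h cannot be drawn on a log axis. Suz12, at 38.1 CPM per kb at 0 h, leads at every time point, and Tet1 and Dnmt3b lie below 0.1 CPM per kb in every library.

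The promoter sequences themselves were not used to choose the genes, but the genes and the E2F words were both chosen with earlier results known. The matches are therefore a description and no separate support for the changes in RNA. In the RefSeq sequences of the mouse build GRCm38.p6, from 250 bases before to 50 bases after each annotated start, 4 words that match the binding motif of the E2F factors, regulators of genes used in S phase, were searched on both strands: TTTCCCGC, TTTGGCGC, TTTCGCGC and TTTGCCGC. A word was present at a start of 5 of the 10 genes, Dnmt1, Uhrf1, Hells, Ezh2 and Suz12, and at no start of Dnmt3a, Dnmt3b, Tet1, Tet2 or Tet3. Over all RefSeq genes, 704 of 27018, or 2.61%, hold such a word at a start. All 4 words contain a CpG, and this share was not matched to the 10 genes for CpG content, so the comparison is not like for like. Of 27 genes of the replication fork and of replication-coupled chromatin described below, 21 had a RefSeq promoter, and 9 of these, or 42.9%, held a word. The stretches around the words are shown because these 5 genes are the ones that rose at 12 h; each is read along the gene's own strand, and the capitals mark the word or its reverse complement.
Dnmt1, chr9:20952824-20952853, minus strand: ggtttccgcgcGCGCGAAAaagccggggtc
Uhrf1, chr17:56304117-56304146, plus strand: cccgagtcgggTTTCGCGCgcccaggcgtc
Hells, chr19:38930917-38930946, plus strand: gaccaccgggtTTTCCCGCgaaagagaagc
Ezh2, chr6:47595009-47595038, minus strand: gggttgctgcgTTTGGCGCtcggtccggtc
Suz12, chr11:79992876-79992905, plus strand: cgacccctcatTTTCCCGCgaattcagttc
Counted from the annotated start as base 1, the word begins at base -219 for the Dnmt1 start that holds it (the third of 3 annotated), at -185 for the second of 2 starts of Uhrf1, at -62 for Hells, at 4 for Ezh2 and at -219 for Suz12. In the GENCODE gene models the stretches of Dnmt1, Hells and Ezh2 are exonic, that of Uhrf1 lies within the gene but in no exon, and that of Suz12 is upstream of the gene. A further word, TTTGGCGC, begins at base 34 of the same Dnmt1 start. The word CCAAT, searched on both strands, was present at a start of Dnmt1, Uhrf1, Tet3, Ezh2 and Suz12, against 41.1% of all RefSeq genes and 16 of the 21 replication genes, or 76.2%. These are matches of letters and not measured binding sites.

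RNA of the maintenance methylation genes rose by 12 h and was still higher at 24 h. Dnmt1, Uhrf1 and Hells each passed the test at both times, with changes of 0.47 to 0.67 on the log2 scale, and in all 3 genes every library at 12 and 24 h lay above every library at 0 h. A gene passes here at a Benjamini-Hochberg adjusted p of at most 0.05 in edgeR's quasi-likelihood test over all 11373 tested genes, and changes are log2 fold changes with their SE. At 12 h against 0 h, 5 of the 9 tested genes rose (Dnmt1, Uhrf1, Hells, Ezh2 and Suz12) and 0 fell, where 13.6% of all tested genes rose and 11.9% fell. DESeq2 also passed 0 as lower at 12 h, and 3 were lower at an unadjusted p of at most 0.05 in edgeR (Dnmt3a, Tet2 and Tet3). Of all 11373 tested genes, 4192 reached such a p at 12 h in either direction. At 24 h against 0 h, 4 rose (Dnmt1, Uhrf1, Hells and Ezh2) and 1 fell (Tet3), where 9.67% rose and 7.76% fell. The median change of the 9 tested genes was 0.24 at 12 h and 0.11 at 24 h, beside -0.003 and -0.006 over all tested genes. Both comparisons use the same 3 libraries at 0 h.

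Dnmt1 (chr9:20907209-20959888, minus strand), the maintenance methyltransferase, had 111, 119 and 123 CPM at 0 h, 157, 162 and 169 CPM at 12 h, and 166, 168 and 175 CPM at 24 h. The 3 libraries at 0 h were the lowest of the 9, and those at 12 and 24 h overlapped each other. The log2 change was 0.47 ± 0.0433 at 12 h (adjusted p = 1.69e-06, edgeR) and 0.53 ± 0.0432 at 24 h (adjusted p = 5.35e-07, edgeR), or 1.38-fold and 1.44-fold. Uhrf1 (chr17:56303321-56323486, plus strand), which brings DNMT1 to newly copied DNA, had 47.3, 50.6 and 53.2 CPM at 0 h, 79.7, 81.0 and 78.2 CPM at 12 h, and 84.2, 74.8 and 81.4 CPM at 24 h. It showed the largest change of the 9 tested genes at both times, 0.66 ± 0.0515 at 12 h (adjusted p = 3.26e-07, edgeR) and 0.67 ± 0.0514 at 24 h (adjusted p = 3.02e-07, edgeR). Of its longest transcript, 44.3% is at least 95% identical over 150 bases or more to Gm5648, a pseudogene, so some reads may have been divided or dropped in counting, and the Uhrf1 level is uncertain to that extent. Hells (chr19:38930915-38971051, plus strand) had 26.0, 28.01 and 29.9 CPM at 0 h, 39.1, 44.7 and 41.0 CPM at 12 h, and 42.3, 41.2 and 42.6 CPM at 24 h. Its 24 h libraries lay close together and within the range of those at 12 h. The changes were 0.57 ± 0.0602 at 12 h (adjusted p = 5.76e-06, edgeR) and 0.59 ± 0.0599 at 24 h (adjusted p = 3.87e-06, edgeR).

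Measured against a 1.5-fold line, a change of 0.58 on the log2 scale, Uhrf1 alone of the 10 genes was past it at 12 h, where 1.34% of tested genes were past it upwards, and Uhrf1 and Hells were past it at 24 h, where 1.68% were. Hells stood on the line: its estimate at 12 h was past it without 0 h replicate 3 (0.63), without 12 h replicate 1 (0.61) or without 12 h replicate 3 (0.59), and its estimate at 24 h was short of it without 0 h replicate 1 (0.54), without 24 h replicate 1 (0.58) or without 24 h replicate 3 (0.58). When the test itself asked for a change of more than 1.5-fold (glmTreat in edgeR), 0 of the 10 genes passed at either time, and 4 and 6 of all tested genes did.

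**Figure D2:**
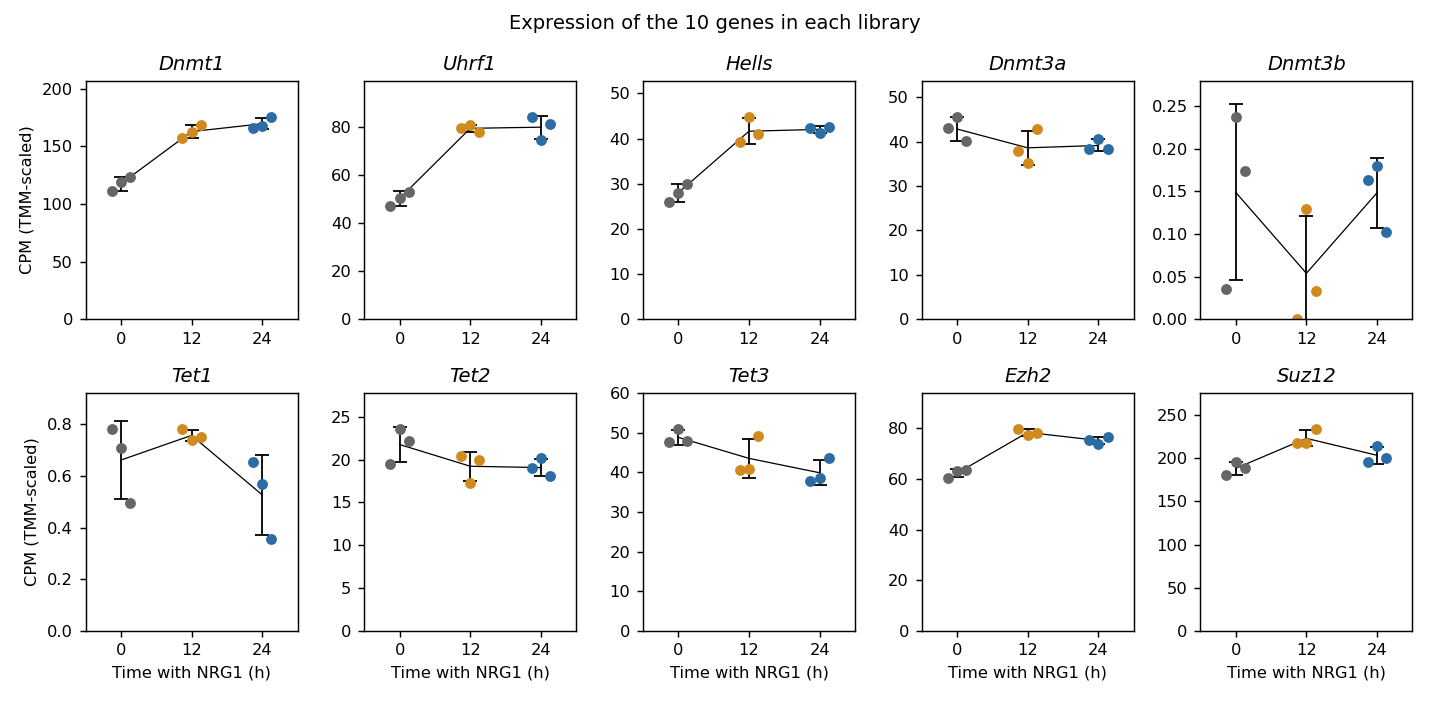
TMM-scaled CPM of the 10 genes in each of the 9 libraries. Each panel is 1 gene with its own vertical axis from 0, points are libraries, vertical bars are the mean ± SD of 3 libraries, and lines join the means. In Dnmt1, Uhrf1, Hells and Ezh2 every library at 12 and 24 h lies above every library at 0 h, and in Tet3 the 24 h libraries (37.7 to 43.5 CPM) lie below those at 0 h (47.6 to 51.0 CPM).

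Of the de novo methyltransferase genes, Dnmt3a did not pass at either time and Dnmt3b could not be tested. Dnmt3a (chr12:3806007-3914443, plus strand) had 43.0, 45.5 and 40.02 CPM at 0 h, 37.8, 35.2 and 42.8 CPM at 12 h, and 38.3, 40.7 and 38.4 CPM at 24 h. The 3 time points overlapped, with 12 h replicate 3 inside the 0 h range. The change was -0.15 ± 0.0659 at 12 h, with a 95% confidence interval of -0.29 to -0.01 and an adjusted p of 0.105 in edgeR, and -0.13 ± 0.0656 at 24 h, with an interval of -0.27 to 0.01 and an adjusted p of 0.192 in edgeR. Without 12 h replicate 3 the 12 h change was -0.22 and passed (adjusted p = 0.0111, edgeR). Over genes at large, that library also differed more from the other 12 h libraries than those did from each other. Dnmt3b (chr2:153649450-153687730, plus strand) was close to absent from these libraries. It had 1, 9 and 6 counts at 0 h, 0, 4 and 1 at 12 h, and 5, 6 and 4 at 24 h, too few to be tested. A count of 0 in a library allows up to 3 counts, which is 0.0829 CPM in the 12 h library with 0 counts. Any change in Dnmt3b was not detectable at this depth.

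Of the TET genes, which encode enzymes that oxidize methylated cytosine, Tet3 fell by 24 h and Tet1 and Tet2 did not pass at either time. Tet3 (chr6:83362373-83459084, minus strand) had 47.6, 51.0 and 48.0 CPM at 0 h, 40.5, 40.9 and 49.1 CPM at 12 h, and 37.7, 38.5 and 43.5 CPM at 24 h. The 24 h libraries lay below the 0 h libraries without overlap, while 12 h replicate 3 lay among those at 0 h. The change was -0.17 ± 0.0703 at 12 h (adjusted p = 0.0900, edgeR) and -0.29 ± 0.0704 at 24 h (adjusted p = 0.00856, edgeR), the latter a percent change of -18.2. Without 12 h replicate 3 the 12 h change was -0.25 and passed (adjusted p = 0.00385, edgeR).
Tet2 (chr3:133463679-133545139, minus strand) had 19.5, 23.6 and 22.2 CPM at 0 h, 20.4, 17.3 and 19.9 CPM at 12 h, and 19.0, 20.1 and 18.1 CPM at 24 h. Its lowest library at 0 h, replicate 1, lay among the later ones. The change was -0.18 ± 0.0805 at 12 h (interval -0.35 to -0.01, adjusted p = 0.110, edgeR) and -0.20 ± 0.0802 at 24 h (interval -0.37 to -0.03, adjusted p = 0.104, edgeR). Without 0 h replicate 1 it passed at both times, at -0.25 (adjusted p = 0.0409, edgeR) and -0.27 (adjusted p = 0.0418, edgeR). Tet1 (chr10:62804570-62908996, minus strand) had 22, 27 and 17 counts at 0 h, 28, 23 and 23 at 12 h, and 20, 19 and 14 at 24 h. At so few counts the intervals were wide, from -0.44 to 0.85 at 12 h (adjusted p = 0.669, edgeR) and from -1.03 to 0.34 at 24 h (adjusted p = 0.524, edgeR), each reaching past 1.5-fold on 1 side.

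Of the PRC2 genes, Ezh2 rose at both times and Suz12 at 12 h. Ezh2 (chr6:47530139-47595341, minus strand) had 60.4, 63.1 and 63.4 CPM at 0 h, 79.8, 77.2 and 78.3 CPM at 12 h, and 75.6, 73.7 and 76.4 CPM at 24 h. The 3 time points formed 3 ranges that did not overlap, with 12 h the highest. The change was 0.33 ± 0.0398 at 12 h (adjusted p = 1.67e-05, edgeR) and 0.27 ± 0.0397 at 24 h (adjusted p = 0.000128, edgeR), or 1.26-fold and 1.21-fold. Suz12 (chr11:79993106-80034123, plus strand) had 180.4, 196 and 188 CPM at 0 h, 218, 218 and 234 CPM at 12 h, and 196, 214 and 200.4 CPM at 24 h. Its 24 h libraries lay below those at 12 h and reached down into the 0 h range. The change was 0.24 ± 0.0445 at 12 h (adjusted p = 0.000703, edgeR) and 0.11 ± 0.0445 at 24 h (interval 0.02 to 0.21, adjusted p = 0.0986, edgeR). Without 12 h replicate 3 the 24 h change was 0.12 and passed (adjusted p = 0.0418, edgeR). A noncoding gene on the opposite strand, Gm26563, overlaps 3.60% of the exonic bases of Suz12, and Gm26625 overlaps 2.61% of those of Ezh2.

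**Figure D3:**
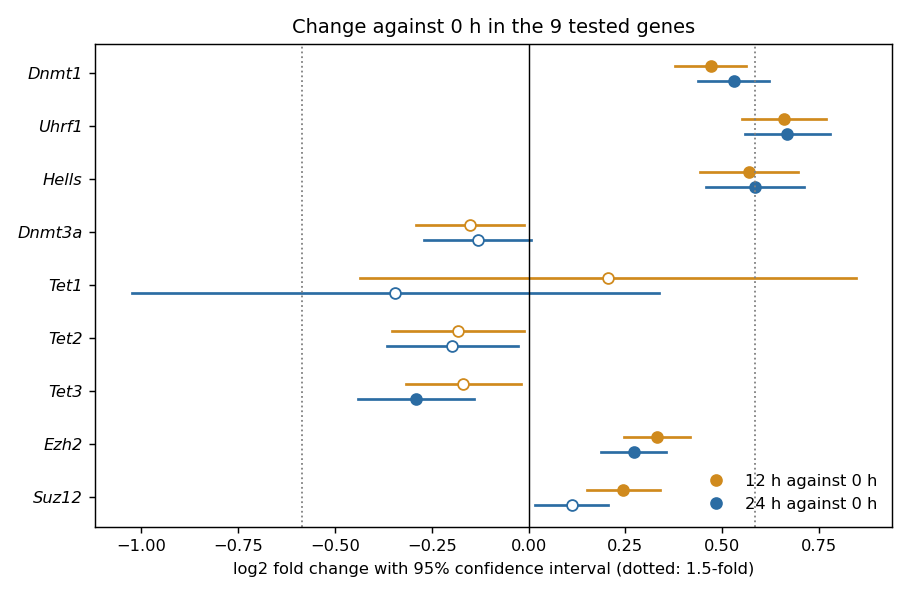
Log2 fold change of the 9 tested genes at 12 h and at 24 h against 0 h, with 95% confidence intervals from the edgeR fit. Filled circles passed an adjusted p of 0.05, open circles did not, and dotted lines mark 1.5-fold in each direction. The estimates of Uhrf1, at 0.66 and 0.67, lie past the line, but both its intervals cross it. The estimate of Hells at 24 h, at 0.59, stands on the line. Ezh2 and Suz12 lie between 0 and the line, and each interval of Tet1 includes 0 and reaches past the line on 1 side.

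Counted without a model, 5 of the 9 tested genes had 12 h libraries that all lay above those at 0 h, where 19.9% of tested genes did, and 0 had them all below, where 18.5% did. For 24 h against 0 h, 4 lay above (17.6% of tested genes) and 1, Tet3, below (17.9%). Between 12 and 24 h, 0 of the 9 tested genes passed in edgeR, where 1.97% of tested genes rose and 3.06% fell. Suz12 was the only gene of the 9 with an unadjusted p of at most 0.05, at -0.13 ± 0.0444 (adjusted p = 0.0944, edgeR), and DESeq2 passed 0 as well. Ezh2, Suz12 and Tet1 had 24 h libraries all below those at 12 h, where 13.6% of tested genes did. In the test over the 3 time points at once, Dnmt1, Uhrf1, Hells, Ezh2, Suz12 and Tet3 passed, 6 of 9, where 27.4% of all tested genes passed. Tet3 no longer passed that test without 0 h replicate 2 (adjusted p = 0.0655, edgeR), 24 h replicate 1 (adjusted p = 0.0508, edgeR) or 24 h replicate 2 (adjusted p = 0.0525, edgeR).

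Some proportions of these genes within a library separated 0 h from later times, but none passed once adjusted. They are built from the same counts as the changes above and are no separate support for them. For each count of Dnmt3a there were 2.74 counts of Dnmt1 at 0 h, 4.23 at 12 h and 4.33 at 24 h, and this ratio was higher in all 6 later libraries than in any 0 h library. The log2 ratio of Uhrf1 to Dnmt1 was also higher in every later library, by 0.19 at 12 h and 0.14 at 24 h. The ratio of Ezh2 to Suz12 was 0.331 at 0 h, 0.352 at 12 h and 0.370 at 24 h, with overlap at 12 h and none at 24 h. The ratios of Tet2 to Tet3 and of Tet1 to Tet3 overlapped at all 3 time points. With 3 libraries against 3, the exact two-sided permutation test cannot go below p = 0.1. That smallest value was reached for Dnmt1 to Dnmt3a and for Uhrf1 to Dnmt1 at both times and for Ezh2 to Suz12 at 24 h, and adjusted over the 42 ratio tests made it became 0.2. The ratio of Dnmt3a to Dnmt3b was not computed because of the low counts of Dnmt3b.

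The 10 genes can also be set against the replicative helicase genes Mcm2 to Mcm7, whose RNA is high in cycling cells. Their summed level was 369 ± 27.8 CPM (SD, n = 3) before NRG1 and 546 ± 22.4 and 520.4 ± 14.9 CPM after 12 and 24 h, without overlap between 0 h and either later time. Singly these genes rose by 0.51 (Mcm7) to 0.65 (Mcm3) at 12 h, and by 0.39 (Mcm7) to 0.62 (Mcm4) at 24 h. A gene with unchanged CPM would therefore be lower relative to the sum by about such an amount. Relative to that sum, Dnmt1 moved by -0.09 at 12 h and 0.03 at 24 h on the log2 scale and Hells by 0.01 and 0.09, while Uhrf1 was higher by 0.10 and 0.17. Ezh2 was lower relative to the sum by a log2 difference of -0.23 at 12 h and -0.22 at 24 h, and Suz12 by -0.32 and -0.39, although both had risen in CPM at 12 h. Dnmt3a differed by -0.72 and -0.63, Tet2 by -0.74 and -0.68, and Tet3 by -0.74 and -0.79. Tet1, on 14 to 28 counts a library, differed by -0.34 and -0.85. For Uhrf1, Ezh2, Suz12, Dnmt3a, Tet2 and Tet3 the libraries at 0 h and at each later time did not overlap, at the smallest p the exact permutation test allows (p = 0.1, adjusted 0.2). Because the rise of the sum alone lowers this ratio, the separation is no test of a fall in Dnmt3a, Tet2 or Tet3 themselves. The share of all tested genes that separate on this ratio was not computed. Hells and Tet1 did not overlap at 24 h (exact p = 0.1 for each), and Dnmt1 overlapped at both times (exact p = 0.3 and 0.2). How far the share of cycling cells contributed to any of these changes was not tested.

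**Figure D4:**
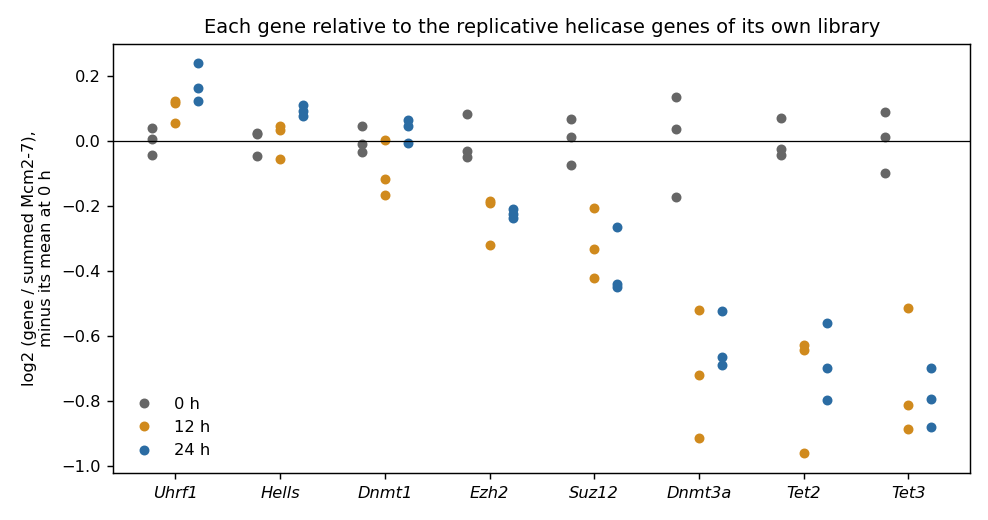
Level of 8 of the genes relative to summed Mcm2 to Mcm7 within each library. The vertical axis is the log2 ratio minus its mean at 0 h, each point is 1 library, and colors are the 3 time points. Dnmt1 and Hells stay near 0, Ezh2 and Suz12 sit below it, with mean differences of -0.22 to -0.39, and Dnmt3a, Tet2 and Tet3 sit lowest, at -0.63 to -0.79. The sum itself rose after 0 h, so 0 marks a gene that rose as much as the sum. A gene with unchanged CPM would lie below 0.

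Among other genes, most of those that work at the replication fork rose at both times. Of the 27 genes of the replication fork and of replication-coupled chromatin, 26 rose at 12 h, where 13.6% of all tested genes did, and 25 at 24 h, where 9.67% did. At both times 0 fell in edgeR or DESeq2, where 11.9% and 7.76% of all tested genes fell in edgeR. At an unadjusted p of at most 0.05, 0 were lower as well. Of all 11373 tested genes, 4192 and 3429 reached such a p in either direction. Between 12 and 24 h 0 passed in edgeR or DESeq2, with 3 lower at an unadjusted p of at most 0.05, which 2290 of all tested genes reached. The median log2 change of the 27 genes was 0.53 at 12 h and 0.50 at 24 h, beside -0.003 and -0.006 over all tested genes. Left-out libraries moved the count of rises only between 24 and 26 at each time. Prim1, the catalytic primase subunit, rose by 0.70 ± 0.0885 at 12 h (adjusted p = 2.48e-05, edgeR), Pcna, the sliding clamp, by 0.65 ± 0.0419 (adjusted p = 1.44e-07, edgeR), and Lig1, the ligase that joins Okazaki fragments, by 0.65 ± 0.0667 (adjusted p = 4.26e-06, edgeR). At 24 h the largest rises were those of the histone chaperone gene Asf1b, at 0.68 ± 0.0994, of Mcm4, at 0.62 ± 0.0744, and of Pole, a leading-strand polymerase gene, at 0.60 ± 0.0847. The exception at both times was Asf1a, at -0.01 ± 0.101 and 0.05 ± 0.09999, of whose exonic bases 48.0% overlap Mcm9 on the opposite strand. Larger such overlaps were found in Gins2 (67.3%, with Gse1) and Chaf1a (52.5%, with Ubxn6), which rose at both times. Gins3 missed at 24 h, at 0.40 ± 0.144 (adjusted p = 0.0636, edgeR).

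The wider DNA methylation machinery gave calls in both directions, at shares near those of all tested genes at 12 h. Of 26 tested partners, readers and erasers of DNA methylation, 4 rose and 3 fell at 12 h, 2 rose and 2 fell at 24 h, with median changes of 0.04 and 0.03. Over all tested genes 13.6% rose and 11.9% fell at 12 h, and 9.67% rose and 7.76% fell at 24 h. Between 12 and 24 h 0 passed in edgeR, 5 were lower at an unadjusted p of at most 0.05, and DESeq2 passed 1. In either direction, 2290 of the 11373 tested genes reached that unadjusted p in edgeR. Gadd45a, a stress gene with a proposed part in demethylation, rose by 0.55 ± 0.115 at 12 h (adjusted p = 0.00213, edgeR) and 0.41 ± 0.115 at 24 h (adjusted p = 0.0214, edgeR), from 12.1 ± 1.86 CPM to 17.8 ± 3.10 and 16.1 ± 0.444 CPM. Tdg, the glycosylase that removes the oxidized products of the TET enzymes, rose by 0.41 ± 0.0651 at 12 h (adjusted p = 0.000224, edgeR) and 0.20 ± 0.0655 at 24 h (adjusted p = 0.0416, edgeR). Mat2a, which makes the methyl donor S-adenosylmethionine, fell by 0.22 on the log2 scale at 12 h, and Mbd1, a reader of methylated DNA, fell by 0.15 at 24 h. The 12 h calls of Gadd45a and Tdg stood whichever library was left out. At 24 h the Gadd45a call was lost without 0 h replicate 1, 24 h replicate 2 or 24 h replicate 3 (adjusted p up to 0.101, edgeR), the Tdg call without 0 h replicate 1 or any 24 h library (up to 0.149), the Mbd1 call without 0 h replicate 2 or 3 or 24 h replicate 2 or 3 (up to 0.123), and the 12 h call of Mat2a without 0 h replicate 3 (0.0513). On the opposite strand, another gene overlaps 19.1% of the exonic bases of Gadd45a and 11.3% of those of Mat2a.

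The remaining Polycomb genes also gave calls in both directions. Of 9 other PRC2 subunits tested, 2 rose and 1 fell at 12 h, 1 rose and 2 fell at 24 h, and 1 fell between 12 and 24 h, where 3.06% of all tested genes fell. At 12 h 13.6% of all tested genes rose and 11.9% fell, against 9.67% and 7.76% at 24 h. The median change was 0.02 at 12 h and -0.03 at 24 h. Rbbp7, a histone-binding subunit shared with other complexes, went from 754 ± 7.63 CPM to 829 ± 42.9 CPM by 12 h and stood at 662 ± 23.1 CPM at 24 h. It rose by 0.14 ± 0.0401 at 12 h (adjusted p = 0.0190, edgeR) and was lower at 24 h than at 0 h, by a log2 change of -0.19 ± 0.0401 (adjusted p = 0.00332, edgeR), and than at 12 h, at -0.33 ± 0.0401 (adjusted p = 0.000246, edgeR). Both falls stood whichever library was left out, and the rise was lost without 0 h replicate 3 (adjusted p = 0.0553, edgeR) or 12 h replicate 1 (adjusted p = 0.0992, edgeR). Eed, the third core subunit beside EZH2 and SUZ12, rose by 0.17 ± 0.0471 at 12 h (adjusted p = 0.0142, edgeR), a call lost without 0 h replicate 1 (adjusted p = 0.0560, edgeR). Jarid2, an accessory subunit that guides PRC2, fell by 0.20 at 24 h (adjusted p = 0.00338, edgeR) whichever library was left out. Mtf2, a DNA-binding accessory subunit, rose by 0.18 ± 0.0507 at 24 h, and Phf1, of the same family, fell by 0.41 at 12 h at a low level of 6.999 ± 0.429 CPM at 0 h. Each of these last calls was lost without any of 3 libraries: 0 h replicate 1, 24 h replicate 1 or 24 h replicate 3 for Mtf2 (adjusted p up to 0.0731, edgeR), and 0 h replicate 2, 12 h replicate 1 or 12 h replicate 3 for Phf1 (up to 0.0574), of whose exonic bases 39.3% overlap another gene on the opposite strand.

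Of 22 tested subunits of PRC1, the complex that ubiquitinates histone H2A, 2 rose and 1 fell at 12 h, and 2 rose at 24 h, and the median change was -0.01 at 12 h and 0.02 at 24 h. These counts stand beside 13.6% higher and 11.9% lower of all tested genes at 12 h, and 9.67% higher and 7.76% lower at 24 h. At 24 h 0 fell in edgeR or DESeq2, with 1 lower at an unadjusted p of at most 0.05, and between 12 and 24 h 0 passed in either tool, with 5 higher and 2 lower at such a p. Of all 11373 tested genes, 3429 reached such a p at 24 h and 2290 between 12 and 24 h, in either direction. Rybp rose by 0.31 ± 0.0657 and Pcgf5 by 0.29 ± 0.0602 at 12 h, both subunits of variant PRC1, and Phc3, of canonical PRC1, fell by 0.33 on the log2 scale, from 80.5 ± 2.64 to 64.2 ± 7.34 CPM. These 12 h calls stood whichever library was left out. At 24 h Rybp was higher by 0.20 ± 0.0658 (adjusted p = 0.0487, edgeR), a call kept only without 0 h replicate 2 or 12 h replicate 3 (adjusted p otherwise up to 0.174, edgeR), and L3mbtl2 by 0.28 ± 0.0764 (adjusted p = 0.0162, edgeR), a call lost without 0 h replicate 3 (adjusted p = 0.0530, edgeR) or 24 h replicate 2 (adjusted p = 0.0930, edgeR). For L3mbtl2, 17.2% of exonic bases overlap another gene on the opposite strand. Of 6 tested erasers of Polycomb marks, the demethylase gene Kdm6a fell by 0.17 at 12 h (adjusted p = 0.0443, edgeR), a call lost without 0 h replicate 2 or 3, 12 h replicate 1 or 2, or 24 h replicate 2 (adjusted p up to 0.229, edgeR). The other 5 did not pass at 12 h, and 0 of the 6 passed at 24 h or between 12 and 24 h in edgeR or DESeq2, with 2 lower at 24 h and 0 between 12 and 24 h at an unadjusted p of at most 0.05. Their median change was -0.05 at 12 h and -0.03 at 24 h. Over all tested genes, 13.6% rose and 11.9% fell at 12 h, and 9.67% rose and 7.76% fell at 24 h. Between 12 and 24 h, 1.97% rose and 3.06% fell.

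**Figure D5:**
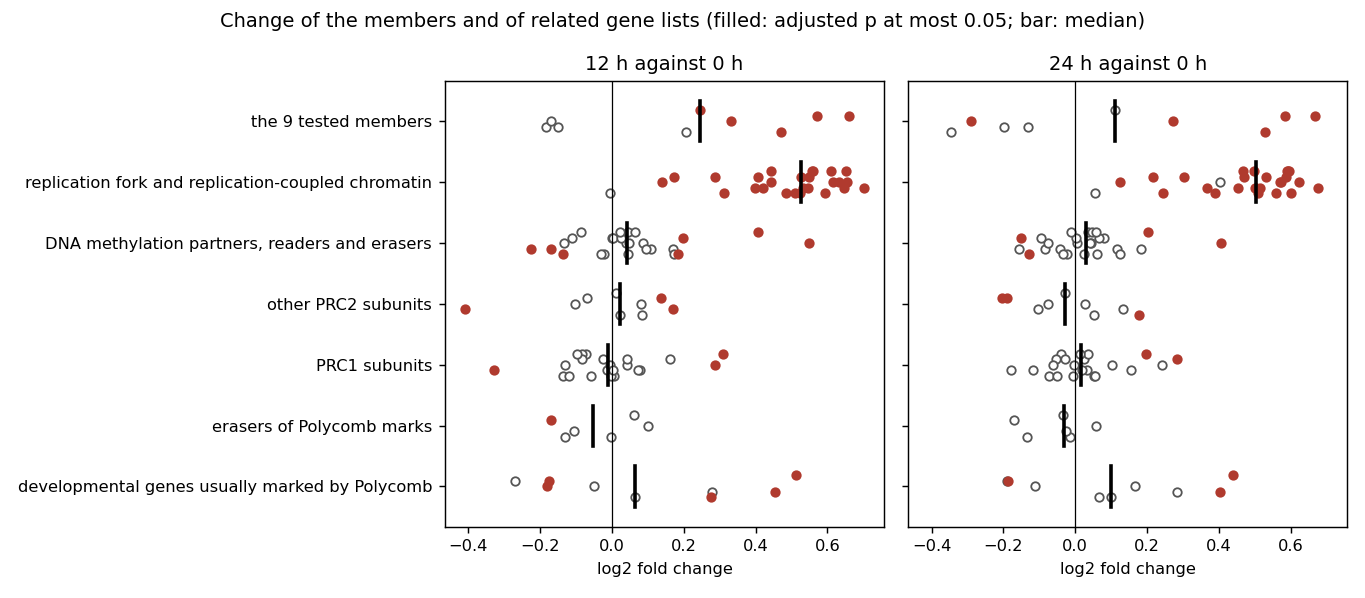
Log2 fold change of the 9 tested genes and of 6 related gene lists at 12 h (left) and 24 h (right) against 0 h. Each point is a gene, filled where its adjusted p was at most 0.05, and thick bars are list medians. The replication list, with medians of 0.53 and 0.50, lies to the right of 0 at both times, and the medians of the other related lists lie between -0.05 and 0.10.

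The germline genes that DNA methylation usually keeps silent and the imprinted genes gave little to test. Of 16 listed developmental genes that Polycomb usually marks, 11 were in the table and 9 were expressed well enough to be tested. Of 12 listed germline genes 8 were in the table, of which 6 were under 1 CPM and 3 were tested. Of 12 listed imprinted genes 8 were in the table, of which 7 were under 1 CPM and 3 were tested. Every gene in the table had at least 1 count, so listed genes absent from it are not covered by these counts. In both lists 0 passed in any comparison in edgeR or DESeq2, and at an unadjusted p of at most 0.05 there was 1, an imprinted gene lower at 12 h. Of all 11373 tested genes, 4192 reached such a p at 12 h in either direction. Brdt (1.60, 1.69 and 1.89 CPM at the 3 successive times) and Tex101 (1.08, 1.39 and 1.34 CPM) were the germline genes above 1 CPM, named here after their values were seen. Of the 9 tested developmental genes that Polycomb usually marks, 3 rose and 2 fell at 12 h, 2 rose and 1 fell at 24 h, and 1 fell between 12 and 24 h, with median changes of 0.06 at 12 h and 0.10 at 24 h. The shares over all tested genes were 13.6% higher and 11.9% lower at 12 h and 9.67% and 7.76% at 24 h. Between 12 and 24 h, 3.06% were lower. DESeq2 passed 2 as higher and 2 as lower at 12 h, 1 and 1 at 24 h, and 1 as lower between 12 and 24 h. Hoxb13, the homeobox gene of the prostate, rose from 84.3 ± 2.69 to 102 ± 3.63 CPM at 12 h (0.28 ± 0.0426, adjusted p = 0.000168, edgeR) whichever library was left out. It then stood at 90.3 ± 3.26 CPM at 24 h, lower than at 12 h by a log2 change of -0.18 ± 0.0424 (adjusted p = 0.0227, edgeR), a call lost without 12 h replicate 1, 24 h replicate 1 or 24 h replicate 3 (adjusted p up to 0.135, edgeR). Hoxa9 rose by 0.51 ± 0.145 and Hoxb9 by 0.45 ± 0.126 at 12 h, calls lost without 0 h replicate 3 (adjusted p = 0.0536, edgeR) or 12 h replicate 2 (adjusted p = 0.0709, edgeR) for Hoxa9 and without 0 h replicate 1 (adjusted p = 0.0614, edgeR) for Hoxb9. At 24 h Hoxa9 was higher by 0.44 ± 0.145, a call kept only without 0 h replicate 2, 12 h replicate 1 or 12 h replicate 3 (adjusted p otherwise up to 0.137, edgeR). Cdkn2b, an inhibitor of cyclin-dependent kinases, rose by 0.40 ± 0.0995 at 24 h and Wnt5a, a secreted ligand, fell by 0.19, both whichever library was left out. No measurement of methylation or of histone marks belongs to these libraries, so the RNA values say nothing on the marks at these genes.

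Across the 9 libraries, the genes outside the 10 whose log2 CPM followed these genes most closely, among 8406 genes with a mean of at least 10 CPM, are given as a description, since the libraries fall into 0 h and later ones and any gene that differs between them correlates. Nearest to Dnmt1 were Atad2, Tpx2 and Sapcd2 (Pearson r = 0.993 for each over 9 libraries). Uhrf1 was followed most closely by Rangap1 (r = 0.997), Rrm1 (r = 0.995) and Fignl1 (r = 0.994), Hells by Hmgb2 (r = 0.996), H2az1 (r = 0.995) and Sapcd2 (r = 0.993), and Ezh2 by Apobec1 (r = 0.994), Pcna (r = 0.990) and Mcm3 (r = 0.984).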

How the data were processed

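RNA of MyC-CaP cells was sequenced as 150 bp paired reads from mRNA libraries. Per the labels and the study's methods, the authors trimmed reads with Cutadapt, aligned them with STAR to GRCm38.p6 with a GENCODE annotation and counted them with featureCounts. The deposited values are unnormalized counts of reads for each gene. Whether counting used the strand was not given in the sources used here, so reads of overlapping genes on opposite strands may be mixed.

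Groups came from the time in the labels. The labels call the replicates biological but describe triplicate wells, so p-values may measure only the spread between wells. Counts were filtered with filterByExpr, TMM-scaled and fitted over all 9 libraries in edgeR 4.0.16 (R 4.3.3, quasi-likelihood F-test, Benjamini-Hochberg over 11373 genes). The SE was obtained as the absolute log2 change over the square root of F. CPM use TMM scaling. Counts cover 28467089 to 39239760 reads per library. A floor of 3 counts covers counting error only. Exon lengths came from GENCODE vM21, in which all 10 genes have the identifiers and coordinates of the table. Promoter sequences are from RefSeq. The fit was also run on simulated independent counts drawn from the means and dispersions of these libraries. Such counts cannot reveal a discordant library or a preparation shared by libraries.

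The 10 genes, the 8 related lists and the E2F words were chosen with earlier results of these data known. From each list and comparison, up to 3 passing genes with the largest change and a mean of at least 1 CPM were named, and for Dnmt1, Uhrf1, Hells and Ezh2 the 3 genes with the highest correlation. Asf1a, Gins2, Gins3, Chaf1a, Brdt and Tex101 were named after their values were seen. Alternatives were DESeq2 1.42.0, other scalings and filters, fits of 2 time points, glmTreat, a replicate block, and each library left out. Of the luminal marker list, 1 gene and the summed level are not reported here.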

Additional observations from a re-analysis of the deposited data

How the results depend on the processing

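Against 17 alternatives, each passing call of the 10 genes at 12 h and at 24 h against 0 h kept its direction, and each still passed in 16 of them. The exception was glmTreat, which asks for more than a 1.5-fold change and passed 0 genes at 12 h and 0 at 24 h, where the main test passed 5 and 5. With no filter on low counts, 7 genes passed at 12 h, with Dnmt3a (adjusted p = 0.0402, edgeR) and Tet3 (adjusted p = 0.0142, edgeR) added, and 1 passed between 12 and 24 h, Suz12, at -0.13 (adjusted p = 0.0366, edgeR). Leaving out each library in turn gave 5 to 7 passing genes at 12 h, 5 to 6 at 24 h, 0 between 12 and 24 h and 5 to 7 over the 3 time points. Genes past 1.5-fold numbered 1 to 2 at 12 h and 1 to 2 at 24 h. Within a time point, libraries were compared by a chi-square of counts per degree of freedom. For 12 h replicate 3 it was 9.92 and 10.1 against the other 12 h libraries, which gave 4.26 with each other. For 0 h replicate 1 it was 7.44 and 6.62, against 4.14 between the other 0 h libraries. DESeq2 passed 5, 5, 0 and 6 genes. With the replicate block 6, 5, 0 and 6 passed, with Tet3 added at 12 h at -0.17 (adjusted p = 0.0431, edgeR). Deviations of same-numbered libraries correlated at -0.07 to 0.13, with 1 of 9 pairs over 0.1. Those of differently numbered libraries correlated at -0.13 to 0.12, with 2 of 18 pairs over 0.1. Such weak correlations cannot exclude a shared preparation of same-numbered libraries. Other scalings moved no list median by more than 0.05. Depth limits Tet1, at 14 to 28 counts a library, and Dnmt3b, at 0 to 9.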
